A study of Homo sapiens with 6 samples.

Results

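The SIX-family, EYA and DACH genes encode proteins that work with PAX factors in the PAX-SIX-EYA-DACH network. The members were taken from the table by gene symbol, *SIX2*, *SIX4*, *SIX5*, *EYA1*, *EYA2*, *EYA3*, *EYA4*, *DACH1* and *DACH2*. Of these 9 genes, 8 were among the 17471 genes of the deposited expression table, and *EYA4* was not analysed here. *SIX2*, *SIX4*, *SIX5*, *EYA1* and *EYA3* were expressed highly enough to be tested, while *EYA2*, *DACH1* and *DACH2* were listed at very low values.

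The study examined *PAX2*, a developmental transcription factor gene, as a tumor suppressor in endometrial cancer. RNA-Seq was performed in AN3CA cells, a human line established from an endometrial cancer, which expresses *PAX2*. Cells were transduced with a lentiviral empty hairpin vector (shEV, 3 libraries, genotype given as WT) or with a vector that encodes a hairpin targeting *PAX2* (shPAX2, 3 libraries, genotype given as *PAX2* KD), and both groups were selected in puromycin. The labels and methods give this empty vector as the control, while other text of the study calls the AN3CA control scrambled. The study's methods describe a single hairpin, so an effect of that hairpin on other genes cannot be told apart from the loss of *PAX2*, and no source says whether the 3 libraries of a group came from separate cultures.

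In the developing kidney, muscle, ear and eye, SIX-family proteins bind DNA through a homeodomain, and EYA proteins, which do not bind DNA themselves, join them as coactivators that are also phosphatases. DACH proteins are relatives of the SKI corepressors and recruit histone deacetylase complexes. In the kidney, PAX2, EYA1 and HOX11 paralogs activate *SIX2* and *GDNF* in the metanephric mesenchyme, where SIX2 keeps nephron progenitors undifferentiated.

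The upstream sequences of *SIX2*, *SIX4* and *EYA3* are shown because the test described below called *SIX2* higher, *SIX4* lower and *EYA3* neither way. They are the 3 tested members whose promoters were in the RefSeq table (GRCh38.p14), which held 6 of the 9 members. Each is the run of 250 bases before the RefSeq gene start, found at 1 place in GRCh37, the build named hg19 in the submitters' processing notes. The *SIX2* run is chr2:45236592-45236841 (minus strand, 65.6% GC), that of *SIX4* is chr14:61191070-61191319 (minus strand, 58% GC) and that of *EYA3* is chr1:28415122-28415371 (minus strand, 62.4% GC). Each is written 5′ to 3′ on the gene's strand, and capitals mark the motif matches described next.
SIX2: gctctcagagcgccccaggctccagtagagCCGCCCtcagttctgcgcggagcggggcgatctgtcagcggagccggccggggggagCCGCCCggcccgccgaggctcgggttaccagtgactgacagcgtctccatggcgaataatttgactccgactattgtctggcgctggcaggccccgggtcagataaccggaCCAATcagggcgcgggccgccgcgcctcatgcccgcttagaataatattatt
SIX4: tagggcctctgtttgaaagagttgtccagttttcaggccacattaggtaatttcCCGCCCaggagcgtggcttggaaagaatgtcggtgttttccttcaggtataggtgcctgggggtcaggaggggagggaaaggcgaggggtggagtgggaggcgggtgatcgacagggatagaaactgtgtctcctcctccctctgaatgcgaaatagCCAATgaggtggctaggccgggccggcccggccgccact
EYA3: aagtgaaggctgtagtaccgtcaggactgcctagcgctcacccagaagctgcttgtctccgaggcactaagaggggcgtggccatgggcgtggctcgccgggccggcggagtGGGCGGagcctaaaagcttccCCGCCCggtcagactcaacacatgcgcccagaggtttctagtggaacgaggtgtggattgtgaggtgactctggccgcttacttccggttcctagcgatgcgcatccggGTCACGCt

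The search covered 7 sets of letters on both strands, chosen after the sequences had been seen. The core letters bound by PAX paired domains, GTCACGC, were found in *EYA3* from −8 to −2, counted from −1 at the base before the RefSeq gene start. GENCODE places the *EYA3* start farther upstream, so this match lies inside the gene as GENCODE draws it. The same letters were in 2.2% of the 35116 promoters of the table, taken at the same length. The other form of that core, GTCATGC (1.43% of promoters), the SIX-binding letters TCAGGTT (2.79%) and TGATAC (3.8%), and the TATA box TATAAA (10.72%) had no match in the 3 runs. CCAAT boxes (CCAAT, 32.01% of promoters) were found in *SIX2* from −52 to −48 and in *SIX4* from −39 to −35. GC boxes (GGGCGG, 42.64% of promoters) were found in all 3 runs, 2 in *SIX2*, 1 in *SIX4* and 2 in *EYA3*. No matches overlapped each other. A match describes the letters of these windows and does not show binding.

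**Figure D1:**
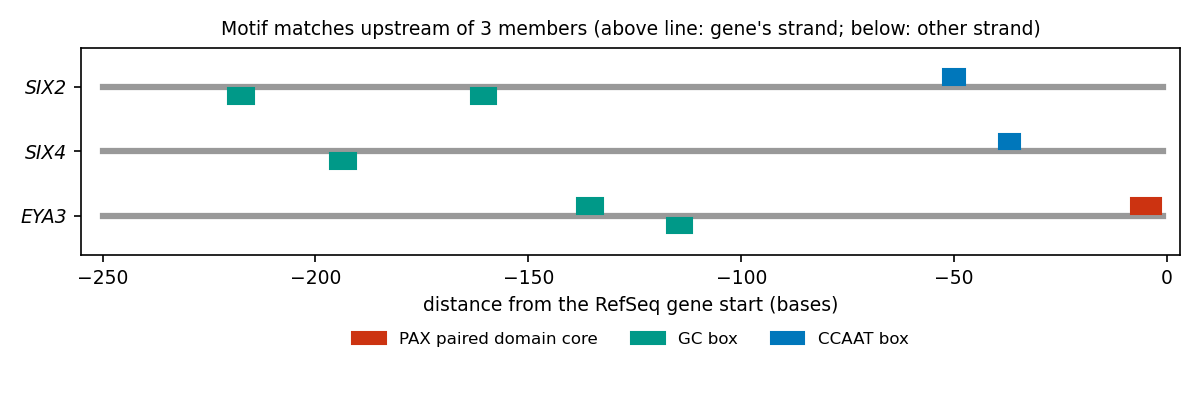
Motif matches in the 250 bases before the RefSeq gene start of *SIX2*, *SIX4* and *EYA3*, with the distance from the start in bases on the x axis. Boxes above a line are matches on the gene's strand and boxes below it are matches on the other strand. The PAX paired domain core appears in *EYA3* from −8 to −2, and CCAAT boxes appear in *SIX2* and *SIX4*.

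The knockdown was examined first. *PAX2* (chr10:102495153-102589701, plus strand) was at 4.03, 3.66 and 2.74 TPM (reads scaled by gene length, then by the library total) in shEV and at 0.916, 0.723 and 1.17 TPM in shPAX2. The groups did not overlap. The log2 fold change was −1.47 (SE 0.18, n = 3 per group), with a limma adjusted p of 0.000294. In bulk RNA, fewer cells that express a gene and less of its RNA per cell cannot be told apart. *PAX8*, its close paralog, had at most 1 read in any library. Fold changes here and below are differences of mean log2(TPM + 0.5), shPAX2 minus shEV, which understate the change of low genes. Adjusted p values are Benjamini-Hochberg values over the 13163 genes tested, and a gene was called at an adjusted p under 0.05.

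The libraries held 10730909 to 18221859 reads in shEV and 19422615 to 29405787 reads in shPAX2, so depth was higher in every shPAX2 library. Over all tested genes the median log2 fold change was −0.10, and it became 0.0053 with median-of-ratios scaling and 0.0019 with quantile normalization. Of the calls, 28.6% were higher in shPAX2 in the values as deposited, against 52.7% and 48.7% under these scalings. The labels call AN3CA epithelial, and of 7 epithelial markers only *KRT18* was tested, with *EPCAM*, *CDH1*, *KRT7*, *KRT8*, *KRT19* and *CLDN4* at 0.387 TPM or less in every library. The summed mesenchymal markers, led by *VIM*, were at 4857 to 5257 TPM in shEV and 4121 to 4308 TPM in shPAX2. *VIM* itself was not called (log2 fold change −0.14, adjusted p 0.0683), while *COL1A2*, a type I collagen chain, fell from 836 ± 24.3 to 390 ± 43.1 TPM (−1.11, adjusted p 1.75e-05). Blood and endothelial markers summed to at most 0.241 and 0.0359 TPM. The smooth and striated muscle markers, almost all *ACTA2*, summed to 58.9 to 77.3 TPM in shEV and 225 to 356 TPM in shPAX2, with *DES* at most 0.228 and *MYH11* at most 0.0268 TPM. Their part in the results below was not tested.

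*SIX2* rose after *PAX2* knockdown, *EYA1* and *SIX4* fell, and *SIX5* and *EYA3* did not pass the test. *SIX2*, called higher, was 1 of 5 tested members, beside 12.2% of all tested genes. *SIX4* and *EYA1*, called lower, were 2 of 5, beside 30.5% of all tested genes. With a further threshold of 1 on the absolute log2 fold change, 1 member was called higher (*SIX2*, beside 1.43% of tested genes) and 0 were called lower (beside 3.11%), by limma on log2 TPM and by limma voom on recovered reads. At an unadjusted limma p under 0.05 and with no fold threshold, 3 of 5 members were lower, *SIX4*, *SIX5* and *EYA1*, beside 36.1% of all tested genes. The groups did not overlap in 4 of 5 tested members, all except *EYA3*, and in 54.9% of tested genes. The members' median log2 fold change was −0.21, beside −0.10 for all tested genes.

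**Figure D2:**
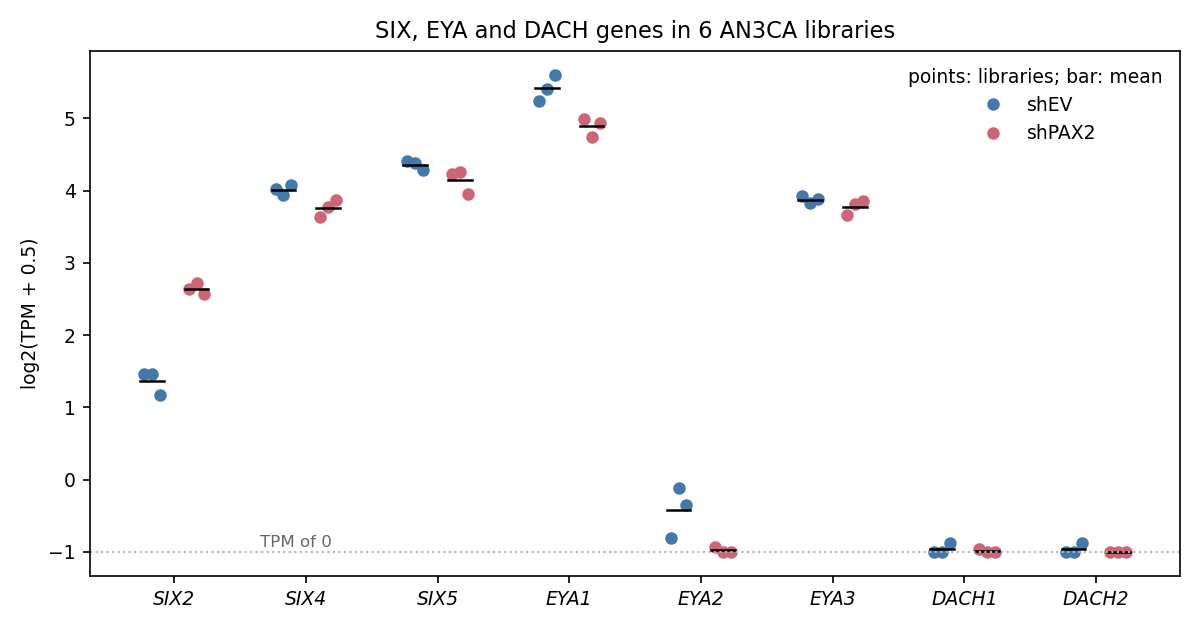
Expression of the 8 listed members in the 6 libraries, as log2(TPM + 0.5), with 1 point per library and a bar at the mean of each group of 3. *SIX2* is the member whose shPAX2 points all lie above its shEV points, the *EYA1* shPAX2 points all lie below, and *DACH1* and *DACH2* lie near the dotted line that marks a TPM of 0.

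*SIX2* (chr2:45232321-45236591, minus strand), the nephron progenitor homeodomain gene, was at 2.25, 2.26 and 1.75 TPM in shEV and at 5.73, 6.10 and 5.42 TPM in shPAX2. Every shPAX2 library was above every shEV library, and the mean went from 2.08 ± 0.292 to 5.75 ± 0.337 TPM (SD, n = 3). The shPAX2 mean was 276% of the shEV mean. These values rested on 26, 43 and 34 reads in shEV and on 189, 177 and 114 reads in shPAX2. The log2 fold change was 1.28 (SE 0.12, 95% interval 1.001 to 1.557), with a limma adjusted p of 7.98e-05. Its fold change ranked 153 from the top of 13163 tested genes. In shEV *SIX2* was a low gene, with 10.4% of tested genes below its mean TPM.

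*SIX4* (chr14:61176257-61191069, minus strand) encodes a SIX-family factor with roles in muscle development. It was at 15.7, 14.8 and 16.4 TPM in shEV and at 11.9, 13.2 and 14.1 TPM in shPAX2. The groups did not overlap, but the lowest shEV library and the highest shPAX2 library lay close together. Means were 15.6 ± 0.805 and 13.1 ± 1.13 TPM. The log2 fold change was −0.25 (SE 0.08, 95% interval −0.44 to −0.07), with a limma adjusted p of 0.0350. The call was lost with median-of-ratios scaling (−0.14, adjusted p 0.174) and with quantile normalization (−0.09, adjusted p 0.434). It was also lost without shEV replicate 1 (adjusted p 0.0769), shEV replicate 3 (0.104), shPAX2 replicate 1 (0.0863) or shPAX2 replicate 2 (0.0860). *MNAT1*, 10391 bases from *SIX4*, had a log2 fold change of 0.05 (adjusted p 0.618).

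*SIX5* (chr19:46268043-46272510, minus strand), which lies beside the myotonic dystrophy kinase gene *DMPK*, was at 20.8, 20.3 and 19.0 TPM in shEV. In shPAX2 it was at 18.2, 18.6 and 15.0 TPM, with replicate 3 the lowest. The groups did not overlap. The log2 fold change of −0.21 (SE 0.09, 95% interval −0.42 to −0.01) had a limma adjusted p of 0.0805 and was not called in any of the 15 alternatives, where adjusted p ran from 0.0541 to 0.493. *DMPK*, 457 bases away on the same strand, fell from 8.31 to 6.18 TPM (log2 fold change −0.40, adjusted p 0.00606).

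*EYA1* (chr8:72109668-72504260, minus strand), the coactivator whose loss causes branchio-oto-renal syndrome, was the most abundant member. It was at 37.1, 41.7 and 48.2 TPM in shEV and at 31.4, 26.4 and 30.2 TPM in shPAX2. Every shPAX2 library was below every shEV library, and the means were 42.4 ± 5.55 and 29.3 ± 2.64 TPM (SD, n = 3), so that the shPAX2 mean was 69.3% of the shEV mean. Between 909 and 2194 reads lay behind each value. The log2 fold change was −0.52 (SE 0.10, 95% interval −0.75 to −0.28), with a limma adjusted p of 0.00416. In the 15 alternatives it ran from −0.61 to −0.41, with adjusted p at or under 0.0187.

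*EYA3* (chr1:28296855-28415148, minus strand), a widely expressed EYA phosphatase, was at 14.6, 13.7 and 14.3 TPM in shEV and at 12.2, 13.6 and 14.0 TPM in shPAX2. The groups overlapped. The log2 fold change was −0.10 (SE 0.08, 95% interval −0.27 to 0.07) with a limma adjusted p of 0.327, close to the median of all tested genes, and its sign turned under median-of-ratios scaling (0.01) and quantile normalization (0.08).

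*EYA2* (chr20:45523263-45817492, plus strand), an EYA coactivator of muscle and sensory organs, was at 0.0689, 0.419 and 0.287 TPM in shEV, from 1, 10 and 7 reads. In shPAX2 it was at 0.0242, 0 and 0 TPM, from 1, 0 and 0 reads. It was below the filter on low values and was therefore not tested. Relative to the library totals, the pooled read rate was 29.4 times higher in shEV, with an exact 95% interval of 4.64 to 1225 that covers counting error only. In a fit without the filter its log2 fold change was −0.55 and its limma adjusted p was 0.0468, and this was the only setting in which it had a test. A floor of 3 reads per library corresponded to 0.0721 to 0.208 TPM.

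The DACH corepressor genes were close to undetected. *DACH1* (chr13:72012098-72441342, minus strand) had 0, 0 and 2 reads in shEV and 1, 0 and 0 reads in shPAX2. *DACH2* (chrX:85403455-86087607, plus strand) had 0, 0 and 1 reads in shEV and 0 reads in each shPAX2 library. These read numbers are the smallest whole numbers that fit the values, and *DACH2* had a value in 1 library only. On that footing, a floor of 3 reads was worth 0.0373 to 0.107 TPM for *DACH1* and 0.0777 to 0.224 TPM for *DACH2*. No difference was detectable at this depth, and no fold was computed.

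**Figure D3:**
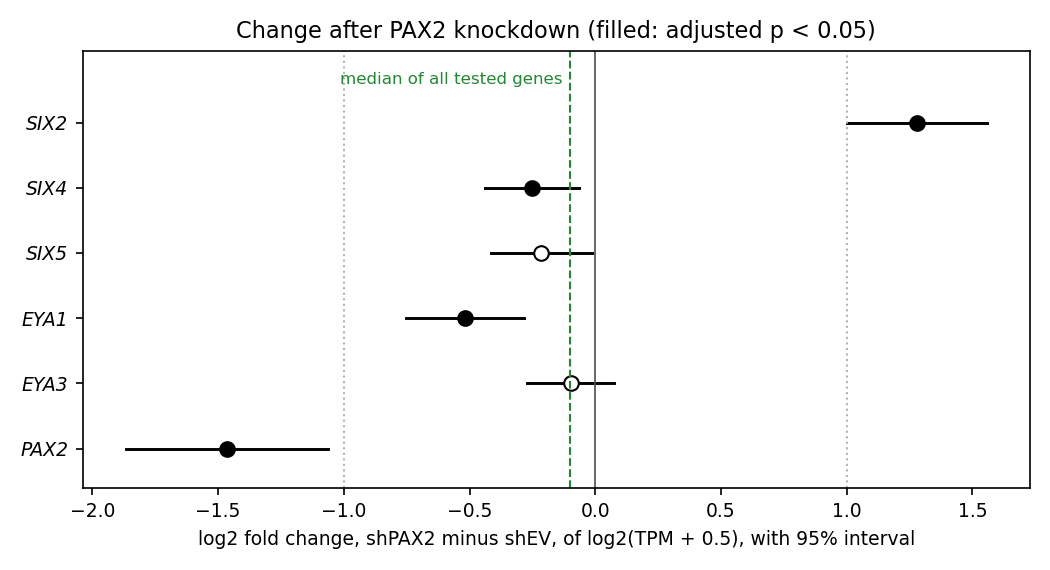
Log2 fold changes of the tested members and *PAX2*, shPAX2 minus shEV on the log2(TPM + 0.5) scale, with 95% intervals. Filled points have an adjusted p under 0.05, the dashed line is the median of all tested genes (−0.10) and dotted lines mark −1 and 1. *SIX2* lies at 1.28 and *PAX2* at −1.47, while the other genes lie between −0.52 and −0.10.

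The order of the members was compared within each group, since TPM is per length. In shEV the order by mean TPM was *EYA1*, *SIX5*, *SIX4*, *EYA3*, *SIX2* and *EYA2*, and no 2 neighbours in it overlapped between libraries. In shPAX2, *EYA3* and *SIX4* overlapped (13.2 ± 0.957 and 13.1 ± 1.13 TPM), and *EYA1*, *SIX5* and *SIX2* kept ranks 1, 2 and 5. *DACH1* and *DACH2* overlapped each other in both groups, and in shPAX2 *EYA2* overlapped *DACH1*.

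The make-up of the SIX-family genes changed through *SIX2*. Among *SIX2*, *SIX4* and *SIX5*, the share of *SIX2* in the summed TPM was 5.81%, 6.05% and 4.70% in shEV and 16.0%, 16.1% and 15.7% in shPAX2. The groups did not overlap. The share of *SIX5* was 53.1% ± 1.65 in shEV and 47.8% ± 3.87 in shPAX2, and that of *SIX4* was 41.4% ± 2.37 and 36.3% ± 4.06 (SD, n = 3). The 3 genes summed to 37.7 ± 0.848 TPM in shEV and to 36.1 ± 1.63 TPM in shPAX2, and the libraries of the groups overlapped. The ratio of *SIX2* to *SIX4* was 0.134 ± 0.0244 in shEV and 0.443 ± 0.0523 in shPAX2. With gene lengths from GENCODE, the share of *SIX2* in shPAX2 was 16.6%, a move of more than 1 SD. A share or ratio within a library does not depend on the scaling between libraries.

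In the EYA family, *EYA1* held 74.4% ± 2.59 of the summed TPM in shEV and 68.8% ± 3.08 in shPAX2, and *EYA3* held 25.1% ± 2.79 and 31.2% ± 3.11. The 3 genes summed to 56.8 ± 5.53 TPM in shEV and to 42.6 ± 2.27 TPM in shPAX2. The ratio of *EYA1* to *EYA3* was 2.54, 3.05 and 3.38 in shEV and 2.59, 1.94 and 2.16 in shPAX2, so the groups overlapped through shEV replicate 1 and shPAX2 replicate 1. These levels rest on the gene lengths the authors used. With lengths from GENCODE, *EYA1* held 60.4% in shEV and 53.5% in shPAX2.

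**Figure D4:**
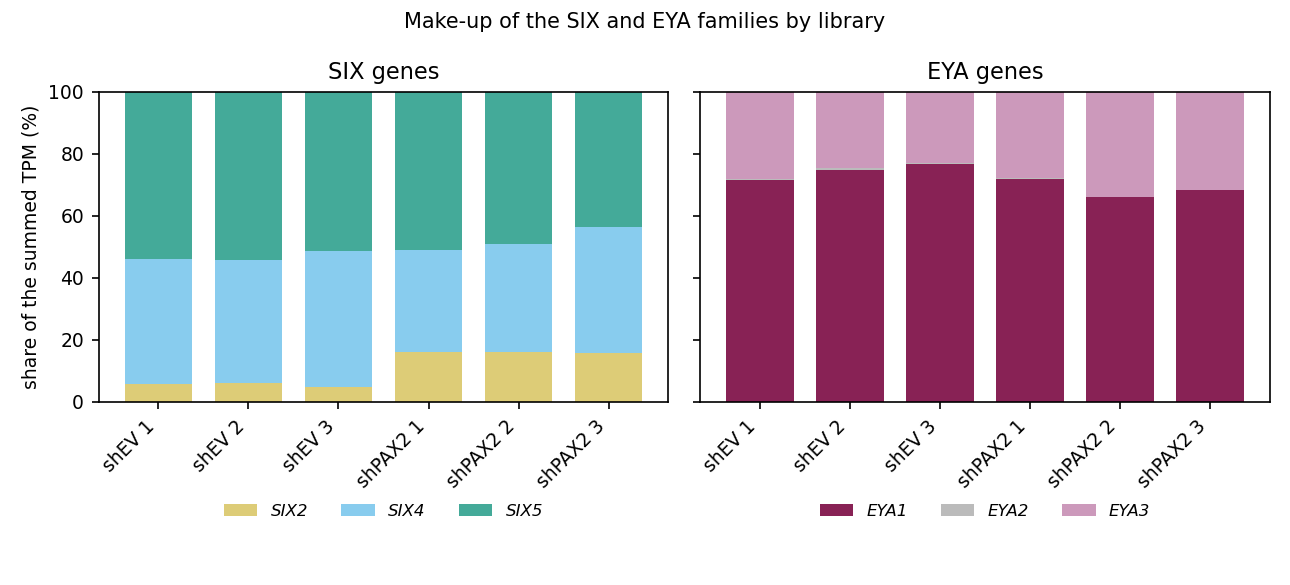
Share of each gene in the summed TPM of the SIX-family members (left) and of the EYA members (right), in percent, with 1 bar per library. The share of *SIX2* is 4.70% to 6.05% in the shEV bars and 15.7% to 16.1% in the shPAX2 bars, *EYA1* is the largest EYA share in all 6 bars, and *EYA2* is too small to see.

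The nearest tested genes on either side of the other tested members were compared to see how their regions moved. *CAMKMT* and *SRBD1*, 232590 and 379228 bases from *SIX2*, had log2 fold changes of −0.19 (adjusted p 0.129) and −0.30 (adjusted p 0.00355), opposite in sign to *SIX2*. *FBXO46*, 33889 bases away on the other side of *SIX5*, was at 0.14 (adjusted p 0.137). *LACTB2* and *TERF1*, 528248 and 1416831 bases from *EYA1*, were at −0.17 (adjusted p 0.137) and −0.21 (adjusted p 0.0629). *XKR8* and *DNAJC8*, 2251 and 110819 bases from *EYA3*, were at 0.01 and 0.10 (adjusted p 0.922 and 0.216). No listed gene overlapped a member. Median log2 fold changes on the chromosomes of the listed members ran from −0.16 to −0.06, beside −0.10 for all tested genes.

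For the 3 most abundant tested members, the genes with the most similar pattern over the 6 libraries were named by Pearson's r of log2(TPM + 0.5). These were *MXI1* and *USP6NL* for *EYA1* (r of 0.999 and 0.998), *FAM66B* and *KIF7* for *SIX5* (0.994 and 0.993), and *ARL6IP1* and *NFXL1* for *SIX4* (0.999 and 0.996). They were picked as the highest of 13163 genes over 6 points that share the group difference. *MXI1*, which encodes a MYC antagonist, was at 26.7, 32.5 and 43.8 TPM in shEV and at 19.8, 14.4 and 18.0 TPM in shPAX2, so it followed the order of the *EYA1* libraries within both groups.

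The wider network was described from lists of genes known to act with these factors. In the PAX family, 6 of 9 genes were listed, 4 were tested, 1 rose and 3 fell, beside 12.2% higher and 30.5% lower of all tested genes. Among those that fell was *PAX2* itself, the target of the hairpin. The gene that rose was *PAX5*, which was tested only because of the group in which it was higher. With a filter of at least 1 TPM, 0 of 3 tested genes rose, beside 1587 of all 12559 genes tested. Without any 1 shPAX2 library it was also 0 of 3, beside 975 to 1803 higher of 13014 to 13019 genes tested. *PAX5*, the B cell factor of the PAX2 subgroup, had 0, 0 and 1 reads in shEV and 38, 42 and 28 reads in shPAX2. Its pooled read rate was 66.1 times higher in shPAX2, with an exact 95% interval of 11.6 to 2636 for counting error, and its limma adjusted p was 0.000581. *PAX6*, the eye field factor, fell from 13.5 ± 0.540 to 9.48 ± 0.647 TPM (log2 fold change −0.49, adjusted p 0.00132). *PAX9* fell from 5.80 ± 0.587 to 3.98 ± 0.471 TPM (−0.49, adjusted p 0.00974), and the *PAX9* call was lost with quantile normalization (adjusted p 0.148).

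A list of 14 genes held corepressors of DACH, SKI or SIX-family proteins and related partners, among them *SMAD4* and *AES*. Of these, 13 were tested, 1 rose and 7 fell, beside 12.2% higher and 30.5% lower of all tested genes. *SMAD4* and *AES* were among those that fell. These counts include *TLE1*, which was tested only because of the group in which it was higher. The list's median log2 fold change was −0.26, beside −0.10 for all tested genes. With median-of-ratios scaling the split was 4 higher and 4 lower of 13, beside 2870 higher and 2577 lower of all 13166 genes tested. With quantile normalization it was 2 higher and 5 lower of 13, beside 2367 and 2489 of all 13163. Without shEV replicate 1 it was 1 higher and 4 lower of 12 tested, beside 1487 and 3298 of all 12934. Without shEV replicate 2 it was again 1 higher and 4 lower of 12, beside 1174 and 3182 of all 12944. *TLE1* was not tested without either library. *TLE1*, a Groucho corepressor, fell from 1.58 ± 0.349 to 0.186 ± 0.0844 TPM (log2 fold change −1.59, adjusted p 0.000321). *TLE2* fell from 16.1 ± 1.13 to 10.1 ± 1.73 TPM (−0.67, adjusted p 0.00189), and *SIN3A*, a histone deacetylase scaffold, fell from 32.3 ± 0.729 to 23.4 ± 0.382 TPM (−0.46, adjusted p 0.000305). The calls of *TLE2* and *SIN3A* held under both scalings. *HDAC2*, a class I histone deacetylase, rose from 41.6 ± 1.68 to 71.5 ± 1.36 TPM (0.77, adjusted p 1.76e-05).

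Of 6 genes for substrates and partners of EYA phosphatases, 5 were tested and only *MDC1*, a mediator of the DNA damage checkpoint that binds phosphorylated H2AX, was called (1 of 5 higher, beside 12.2% of all tested genes). Its log2 fold change was 0.48 (SE 0.11, adjusted p 0.00888). *MDC1* was at 2.43 ± 0.146 TPM in shEV and 3.58 ± 0.190 TPM in shPAX2, from 729 to 3098 reads per library. These TPM are low for the reads, so the added 0.5 shrinks the fold change. Why they are low was not tested. The list median was 0.07, beside −0.10 for all tested genes, and the *MDC1* call was lost without shPAX2 replicate 2 (adjusted p 0.0505).

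Of 20 genes of the ureteric bud and metanephric mesenchyme circuit, 16 were listed and 8 tested, of which 2 rose and 5 fell, beside 12.2% higher and 30.5% lower of all tested genes. These counts include *EMX2* and *GATA3*, which were tested only because of the group in which they were higher. *HOXA11*, a HOX11 paralog, rose from 3.01 ± 0.315 to 10.4 ± 0.437 TPM (log2 fold change 1.64, adjusted p 7.08e-06). The other HOX11 paralogs of the list were named after their values were seen. *HOXC11* fell from 36.2 ± 0.626 to 31.7 ± 2.13 TPM (−0.19, adjusted p 0.0415). That call was lost with median-of-ratios scaling (adjusted p 0.343) and quantile normalization (0.162). *HOXD11* had at most 2 reads in any library. *EMX2*, a urogenital homeobox gene, had 1, 1 and 0 reads in shEV and 51, 34 and 18 reads in shPAX2, a pooled read rate 31.5 times higher with an exact 95% interval of 8.51 to 264 for counting error (limma adjusted p 0.000918). *RET*, the GDNF receptor, fell from 4.35 ± 0.398 to 1.495 ± 0.210 TPM (−1.28, adjusted p 0.000119). *GATA3* fell from 1.06 ± 0.0533 to 0.145 ± 0.0670 TPM (−1.27, adjusted p 0.000564), and *OSR1*, an early nephrogenic factor, fell from 10.0 ± 0.701 to 5.41 ± 0.930 TPM (−0.84, adjusted p 0.00079). The calls of *HOXA11*, *RET* and *OSR1* held under both scalings. Without any 1 shEV library, 3 of 7 tested list genes were lower, beside 2971 to 3298 of all 12922 to 12944 genes tested. Without any 1 shPAX2 library, 1 of 7 was higher, beside 975 to 1803 of all 13014 to 13019 genes tested. *GDNF*, named after its values were seen, had at most 1 read in any library.

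Of 10 genes described as targets of SIX-family homeodomain factors, 6 were listed and 4 tested, of which 1 rose and 2 fell, beside 12.2% higher and 30.5% lower of all tested genes. *EZR*, which encodes the membrane linker ezrin, rose from 98.5 ± 9.10 to 207 ± 28.3 TPM (log2 fold change 1.06, adjusted p 0.00019). *MYC* fell from 86.5 ± 9.64 to 67.5 ± 5.03 TPM (−0.35, adjusted p 0.0136), and this call was lost with median-of-ratios scaling (adjusted p 0.0642), without shEV replicate 2 (0.0566) and without shEV replicate 3 (0.0559). *SLC12A2*, a sodium, potassium and chloride cotransporter, fell from 44.5 ± 2.08 to 35.4 ± 0.632 TPM (−0.33, adjusted p 0.00234). *PAX5*, *EMX2*, *TLE1* and *GATA3* passed the filter only through the group in which they were higher, so their calls follow in part from the filter. The myogenic genes of the target list, *MYOG*, *MYOD1* and *MYF5*, were not analysed here.

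Of the 6 list genes that rose, 3 (*HDAC2*, *MDC1* and *EZR*) lie on chromosome 6. The median log2 fold change of the 634 tested genes on chromosome 6 was 0.39, beside −0.10 for all tested genes. *FOXC1*, the other tested list gene on chromosome 6, fell (log2 fold change −0.47, adjusted p 0.000548). No listed member lies on that chromosome, and the part of the shift in the changes of these list genes was not tested.

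**Figure D5:**
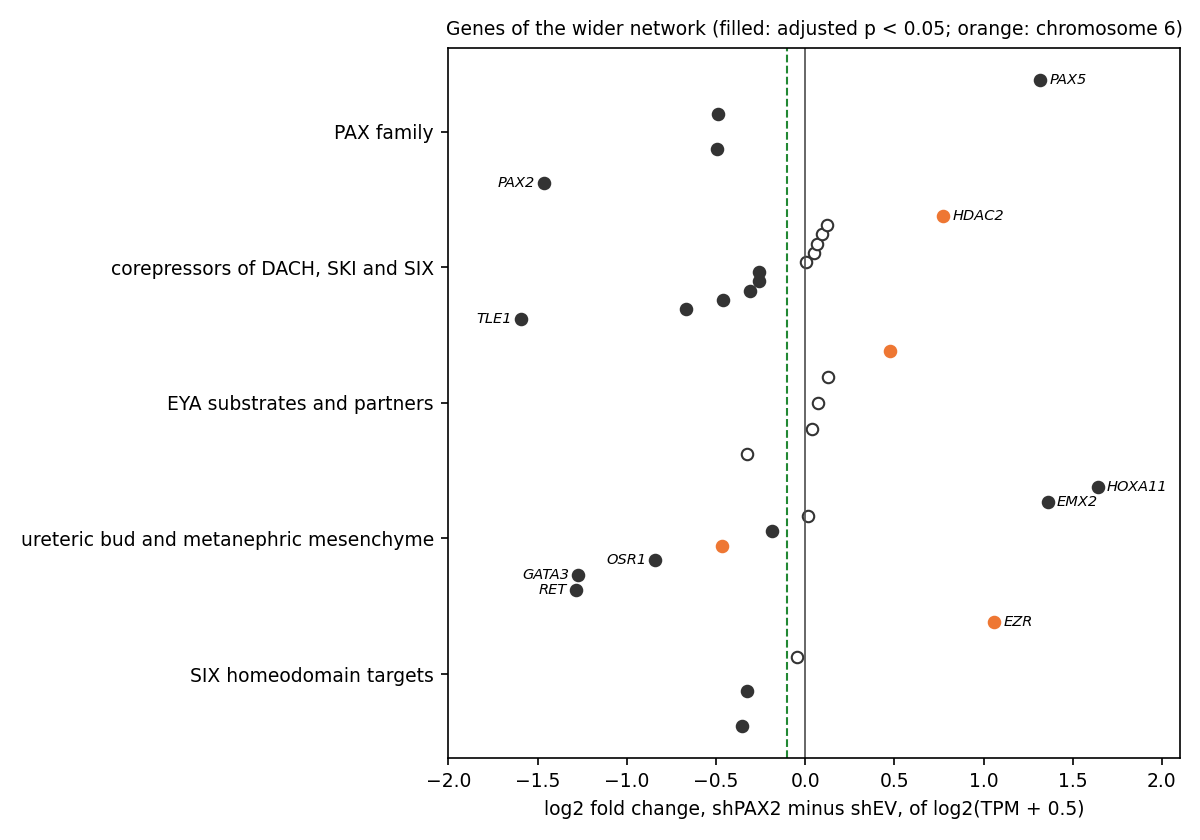
Log2 fold changes of tested genes reported from 5 network lists, shPAX2 minus shEV on the log2(TPM + 0.5) scale, with filled points for an adjusted p under 0.05 and orange points for genes on chromosome 6. The dashed line is the median of all tested genes (−0.10). *HOXA11* (1.64) and *TLE1* (−1.59) lie farthest apart, and 3 of the 4 chromosome 6 genes lie to the right of 0.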

How the data were processed

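RNA-Seq was analysed from 6 AN3CA libraries, grouped by their labels as 3 shEV and 3 shPAX2. The authors deposited TPM values for 17471 genes. The submitters' processing notes name hg19, bcl2fastq, STAR, Subread and featureCounts, without roles, and which tool made the counts behind these values is not given in the sources used here. Within each gene the ratios between libraries were ratios of whole numbers in 100% of genes (largest relative deviation 7.15e-14), which gave the reads per gene except for a factor shared by a gene's libraries, and hence the depth.

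Testing was restricted to the 13163 genes that reached 0.5 TPM in 3 or more libraries. The test was that of limma (version 3.58.1, R 4.3.3), a linear model of log2(TPM + 0.5) with moderated variances (trended and robust), two-sided, 3 against 3, with no covariate. P values measure the spread between these libraries, which may be technical. Because the values are TPM, a count model was not used, and limma voom on the recovered reads was run as 1 of 15 alternatives. Exact intervals for read rates and floors of 3 reads cover counting error only, as reads carry no molecular identifiers. Scripts were tested on simulated data. Gene positions came from GENCODE release 44 (GRCh37), in which 94.8% of symbols were found.

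Members and lists were chosen with earlier results of these data known. Named genes were all members, *PAX2*, *PAX8*, up to 3 called genes in each direction per list by absolute fold change, the tested neighbours, and 2 genes of most similar pattern for each of 3 members. Some of the genes these rules name are not reported here. Same-numbered libraries did not deviate together (correlations −0.0523, 0.0815 and 0.0014).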

Additional observations from a re-analysis of the deposited data

How the results depend on the processing

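Two-sided limma calls were repeated under 15 settings. The number of members past the fold threshold stayed at 1 (*SIX2*) in all 15, and the number past adjusted p alone was 2 or 3. *SIX2* ran from 1.13 to 1.53 on the log2 scale (adjusted p at most 0.000724), *EYA1* from −0.61 to −0.41 and *PAX2* from −1.87 to −1.20, and these 3 kept their calls. *SIX4* (−0.31 to −0.09) lost the call in 7 settings, among them the fit without the filter on low values (adjusted p 0.0542). *EYA3* reversed to 0.0106 with median-of-ratios scaling and to 0.0779 with quantile normalization, and the cause was not tested. The replicate numbers mark no shared culture or day in the labels. With the replicate block, adjusted p was 0.000544 for *SIX2*, 0.0416 for *SIX4* and 0.00762 for *EYA1*, so 3 members were past adjusted p and 1 past the fold threshold, and calls over all genes went from 1612 higher and 4017 lower to 1489 and 3623. With GENCODE lengths the shares of *EYA1* and *EYA3* in both groups and of *SIX2* in shPAX2 moved by more than 1 SD, and *EYA3* held 39.1% in shEV and 46.4% in shPAX2. Low reads limit *EYA2*, *DACH1* and *DACH2*.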
